A study of Mus musculus with 12 samples.

Results

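The MYC, MAX and MXD network was followed in primary mouse B cells that carried a mutant or a wild-type form of the transcription factor E12 and either had or had not been stimulated through the antigen receptor. All probes annotated to Myc, Max, Mxd1, Mxd3, Mxd4, Mxi1, Mnt, Mlx, Mlxip and Txnip were taken. These 10 genes were represented by 22 of the 45281 probes on the array, and 14 of the 22 passed the detection filter, as did 19715 probes in all. Each of the 10 genes kept at least 1 probe and so belonged to the 10050 genes tested.

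There were 4 groups of 3 arrays each. Cells with mutant E12 had been given anti-IgM or left untreated, and so had cells with wild-type E12. Every group came from splenic B cells of C57BL/6 mice aged 8 weeks in which 1 of the 2 alleles of the E2A gene was deleted, so the untreated and wild-type E12 groups share that deletion. All cells were first kept for 14 h with interleukin 4 at 5 ng/ml plus CD40 ligand at 200 ng/ml, then had 2 infections of 12 h each with a retrovirus encoding GFP and E12 in the presence of lipopolysaccharide (200 ng/ml), then another 22 h in culture with the stimulants. Anti-IgM, a goat F(ab')2 antibody at 2.5 µg/ml that crosslinks the antigen receptor, was given for 3 h, and GFP-positive cells were sorted. E12 is one of the proteins encoded by the E2A gene (Tcf3), and the series title calls its mutant form resistant to calmodulin. These cells therefore held E12 from a retroviral insert beside the remaining allele, and whether the Tcf3 probes read the insert was not tested. No source used here states how many mice or cultures lay behind the 3 arrays of a group. The p-values measure only the spread between these arrays, which may be technical.

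MYC is a basic helix-loop-helix leucine zipper protein that binds E-box DNA together with its partner MAX and activates genes of growth, ribosome production and metabolism. MXD1, MXD3, MXD4, MXI1 and MNT also pair with MAX on E-boxes, and these pairs recruit SIN3 and histone deacetylase complexes that repress transcription. MLX links the network to metabolism: it pairs with MLXIP (also called MondoA), which senses glucose phosphates, and TXNIP is the best known target of that pair and a brake on glucose uptake. In B cells Myc is an early gene of antigen receptor signalling.

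The E-box bound by MYC and MAX reads CACGTG, and windows of 300 bases around the gene starts (250 before and 50 after, RefSeq, GRCm38.p6) were searched for it, since E-boxes are where the members meet. The sequence is its own reverse complement, so 1 search covers both strands. The 9 member genes in the RefSeq table had 11 windows, and Myc, which had none there, was not searched. The E-box lay in 4 of the 11, those of Max, Mxd4, Mnt and Mlx, against 7.15% of all 32851 windows. The 30 bases around each match follow, 5′ to 3′ on the strand of the gene, with the E-box in capitals. The Max site is on the minus strand at chr12:76962234-76962263, that of Mxd4 on the minus strand at chr5:34187912-34187941, that of Mnt on the plus strand at chr11:74830789-74830818 and that of Mlx on the plus strand at chr11:101087238-101087267.
Max: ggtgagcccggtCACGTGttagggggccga
Mxd4: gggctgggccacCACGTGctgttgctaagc
Mnt: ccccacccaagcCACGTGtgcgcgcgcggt
Mlx: ggtgggttggatCACGTGactgagcctcgc
The match began 3 bases before the gene start in Max, 219 in Mxd4, 123 in Mnt and 40 in Mlx. The looser E-box CANNTG, which E proteins such as E12 bind and which includes CACGTG, occurred in 7 of the 11 member windows and in 72.3% of all windows.

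Txnip is known for a pair of imperfect E-boxes separated by a short spacer, the carbohydrate response element read by MLXIP and MLX. The pattern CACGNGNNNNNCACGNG was searched on both strands, and it can overlap CACGTG where N is T. It was present in 16 of the 32851 windows, or 0.0487%, and among the members only in that of Txnip, where it began 85 bases before the gene start. The 250 bases before the Txnip start, on the plus strand at chr3:96557707-96557956, are shown because both copies of the element stand in them, here in capitals.
Txnip: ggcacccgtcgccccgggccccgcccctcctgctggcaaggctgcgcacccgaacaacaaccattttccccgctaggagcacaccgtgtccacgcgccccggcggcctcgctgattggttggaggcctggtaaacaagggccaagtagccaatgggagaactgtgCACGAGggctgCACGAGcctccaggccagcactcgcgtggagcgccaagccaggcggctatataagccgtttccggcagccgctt
These matches describe the letters of the windows and show no binding.

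The 6 mutant E12 arrays and the 6 wild-type E12 arrays had been normalized apart by the authors, with medians of 6.40 in the mutant set and 6.93 to 6.94 in the wild-type set, so array set and E12 form cannot be told apart in any comparison between the forms. All 12 arrays were put on 1 scale before testing, and the correlation across genes between replicate arrays lay between 0.978 and 0.997. Tcf3 was higher by 1.68 on the log2 scale in untreated mutant E12 cells than in wild-type E12 cells, and by 1.55 with anti-IgM. A second Tcf3 probe gave 1.65 and 1.59. The sizes depended on the scaling, and on the values as deposited the first probe gave 2.44 and 2.27. The B cell genes Cd79b, Ms4a1, Cd22 and Cd37 were above the detection limit on all 12 arrays, while Pax5 was above it on 0. Cr2, also a B cell marker, was above it on the 6 wild-type E12 arrays only. The limit was higher on the mutant E12 arrays (15.63 to 15.65 units of the deposited values) than on the wild-type ones (12.91 to 12.92). What this adds to the split of Cr2 was not tested. Cd3e, Cd3g, Cd4 and Cd8a of T cells, and Itgam, S100a9 and Mpo of myeloid cells, were above the limit on 0 arrays. Other markers of these lists were above it, among them Cd2 and Lyz1 on 12 arrays, Lyz2 on 8, Cd14 on 7, Adgre1 on 6, S100a8 on 4 and Cd3d and Csf1r on 2 each. The summed intensity of the 6 measured B cell markers ranged from 12654 to 16932 units with mutant E12 and anti-IgM, 15007 to 18831 with mutant E12 untreated, 14470 to 15754 in stimulated wild-type E12 cells and 26391 to 32882 in untreated wild-type E12 cells. The 5 plasma cell markers summed to between 14451 and 22305 units in mutant E12 cells and between 11487 and 13401 units in wild-type E12 cells. The 9 myeloid markers summed to between 107 and 215 units in mutant E12 cells and between 381 and 2223 units in wild-type E12 cells. The value of 2223 was that of replicate 1 of untreated wild-type E12, and replicates 2 and 3 had 639 and 637. The 6 T cell markers summed to between 634 and 1096 units in mutant and between 236 and 581 units in wild-type E12 cells. Of these 6 only 1, Cd2, passed the detection filter, so their sum is mainly the level of Cd2. The part of these differences in the results on the network was not tested, and in such bulk RNA fewer cells of a type and less RNA per cell cannot be told apart.

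Levels are given as log2 of the intensity plus 50, and changes are differences of such levels with the standard error of the fit; the offset makes them smaller than the true change for dim probes. A gene is called where limma's adjusted p, over all 10050 genes, is below 0.05. In the anti-IgM response with mutant E12, 0 of the 10 members passed by limma, against 0.229% of all genes (23 genes), 0.189% higher and 0.0398% lower. At an unadjusted p below 0.05 the counts were 2 members and 922 genes. The 3 arrays with anti-IgM did not overlap the 3 untreated ones for 1 member, Mxd4, against 12.1% of all genes. In the response with wild-type E12, 3 members passed, with Myc higher and Mxd4 and Txnip lower. Of all genes, 31.3% were called in this comparison, 15.1% higher and 16.2% lower. Here the arrays separated for 6 members, Myc, Mxd4, Mnt, Mlx, Mlxip and Txnip, against 50.3% of all genes. The median change of the 10 members was -0.13 with mutant E12 and -0.12 with wild-type E12, beside -0.01 and -0.02 over all genes. The counts of members called were thus near the background in both responses, and the network is described below by its individual genes.

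The responses of mutant and wild-type E12 cells differed for 3 members by the interaction term, which tests that difference itself. Of all genes 6.95% were called, 3.48% higher and 3.46% lower with mutant E12. Myc had the lower response with mutant E12, and Mxd4 and Txnip the less negative one. Between the forms without anti-IgM, 3 members passed, Mxd3, Mlx and Txnip, each higher with mutant E12, against 42.6% of all genes called, 20.4% higher and 22.2% lower. With anti-IgM, 6 members passed, Mxd3, Mxd4, Mxi1 and Txnip higher and Myc and Mnt lower with mutant E12, against 43.5% of all genes, 21.3% higher and 22.2% lower. The arrays of the 2 forms did not overlap for 3 members without anti-IgM and for 7 with it, against 49.3% and 58.1% of all genes.

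**Figure D1:**
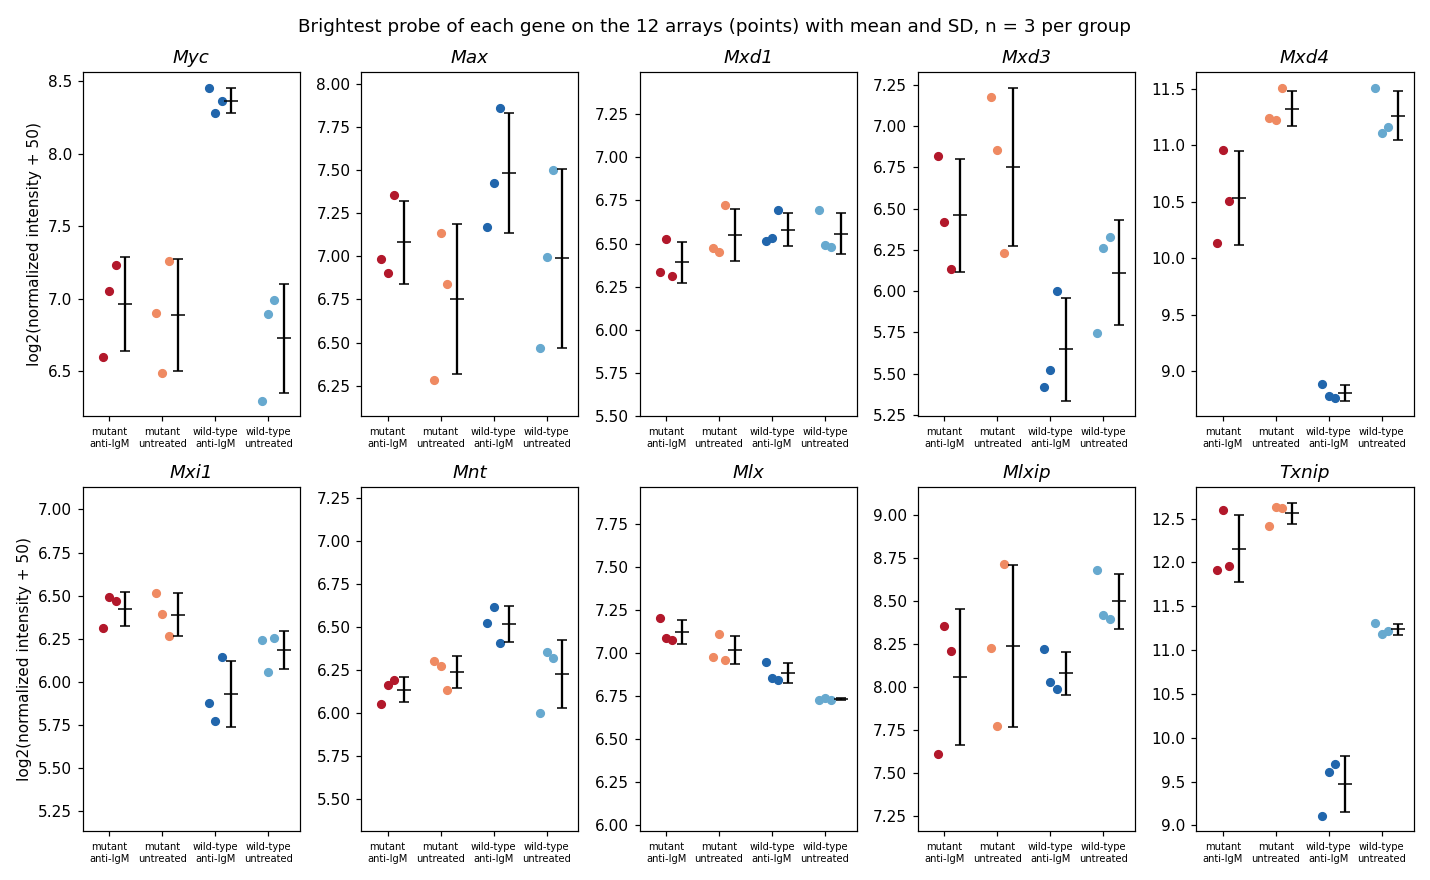
Level of the brightest probe of each of the 10 genes on every array, as log2 of the normalized intensity plus 50, with the group mean and SD to the right of the points (n = 3 per group); from left to right the groups are mutant with anti-IgM, mutant untreated, wild-type with anti-IgM and wild-type untreated, and each panel has its own axis range. Myc stands apart in wild-type E12 cells with anti-IgM, at a mean of 8.37, and Mxd4 and Txnip have their lowest values in the same group.

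Myc, the activating member, rose with anti-IgM in wild-type E12 cells. With mutant E12 its level was 6.60, 7.05 and 7.23 with anti-IgM, against 6.90, 6.49 and 7.26 untreated. Those 2 groups overlapped, and the change of 0.08 had a 95% interval of -0.39 to 0.54 (limma adjusted p = 0.978). With wild-type E12 the level was 8.46, 8.28 and 8.36 with anti-IgM, against 6.30, 6.89 and 6.99 untreated. All 3 stimulated wild-type arrays lay above every other array of the study. The rise with wild-type E12 was 1.64 ± 0.22 (SE, 3.12-fold, limma adjusted p = 6.37e-05), the 64th largest increase among 10050 genes.

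The difference of the Myc responses, mutant minus wild-type E12, was -1.56 ± 0.31 (limma adjusted p = 0.00847), the 16th most negative of all genes. Myc was lower by 1.41 ± 0.22 in mutant than in wild-type E12 cells with anti-IgM (adjusted p = 1.43e-04 by limma). Without anti-IgM the forms differed by 0.16, which did not pass (adjusted p = 0.585 by limma). A second probe for Myc was above the detection limit on 0 of 12 arrays, so the Myc values rest on 1 probe.

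Max, the common partner, gave 0 calls in the 5 comparisons. It had levels of 6.98, 6.91 and 7.36 with mutant E12 and anti-IgM, against 6.28, 7.14 and 6.84 with mutant E12 untreated. In wild-type E12 cells it had 7.17, 7.42 and 7.86 with anti-IgM, against 6.47, 7.00 and 7.50 untreated. The groups overlapped in both forms, yet with wild-type E12 each stimulated array exceeded the untreated array of the same replicate number. The change was 0.33 with mutant E12 (limma adjusted p = 0.824) and 0.50 ± 0.26 with wild-type E12 (limma adjusted p = 0.173). The replicate number within each E12 form was also used as a block, although the arrays do not establish these numbers as pairs. With that block the wild-type change of Max passed (limma adjusted p = 0.0182), and so did the decrease of Mxd3 described below. The members called then came to 5, with 39.1% of all genes called. The wild-type change of Max also passed with array weights (0.45, limma adjusted p = 0.0369) and, at 0.76, without replicate 3 of untreated wild-type E12 (limma adjusted p = 0.0466).

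Of the MXD repressors, Mxd4 was measured by 3 probes and had, by its brightest probe, the largest change of the network in the wild-type E12 response. On the mean of a gene's probes its change was -1.65, against -1.67 for Txnip. With mutant E12 its brightest probe read 10.14, 10.96 and 10.51 with anti-IgM, against 11.25, 11.23 and 11.51 untreated. Every stimulated array was below every untreated one, but the change of -0.79 ± 0.18 missed the threshold (limma adjusted p = 0.0965). It was still the 7th most negative of all genes in that response. Without replicate 2 of mutant E12 with anti-IgM, the highest of its 3 values, the change was -0.998 and passed (limma adjusted p = 0.0235). With wild-type E12 the probe read 8.89, 8.78 and 8.76 with anti-IgM, against 11.51, 11.11 and 11.16 untreated. This decrease lay far outside the spread within either group. It came to a change of -2.45 ± 0.18 (limma adjusted p = 7.28e-07), the 3rd most negative of the 10050 genes.

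The other 2 Mxd4 probes moved the same way by smaller amounts. Their changes with anti-IgM were -0.67 and -0.72 with mutant E12 (limma adjusted p over all probes 0.341 and 0.222) and -1.40 and -1.09 with wild-type E12 (limma adjusted p 3.05e-04 and 9.30e-04). The difference of the responses was 1.66 ± 0.26 by the brightest probe (limma adjusted p = 0.00230), the 15th most positive of all genes. By the other probes it was 0.73 and 0.37 and did not pass (limma adjusted p 0.207 and 0.528 over all probes). All 3 probes thus placed the wild-type response below the mutant one, and only the brightest called the difference.

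Between the forms, Mxd4 with anti-IgM was higher with mutant E12 by 1.73 ± 0.18 (limma adjusted p = 5.12e-06), and by 1.54 and 1.21 by the other probes (limma adjusted p 8.30e-05 and 2.51e-04). Without anti-IgM the probes disagreed. The brightest gave 0.06 (limma adjusted p = 0.799), and the others gave 0.81 and 0.83, which passed (limma adjusted p 0.00798 and 0.00354). That of the brightest probe depended on the scaling: on the values as deposited it was 0.79 (limma adjusted p = 0.00312) and after cyclic loess 0.14. On the values as deposited the median of all genes was 0.12 higher with mutant E12 untreated and 0.11 higher with anti-IgM.

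**Figure D2:**
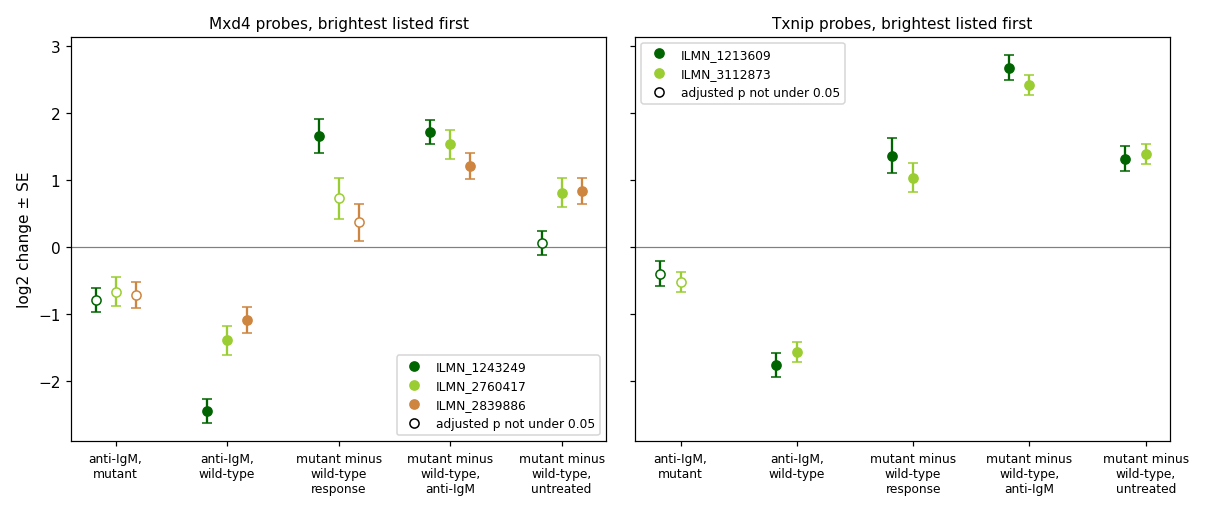
Log2 changes with standard errors for the 3 Mxd4 probes and the 2 Txnip probes in the 5 comparisons, each from 3 arrays per group; filled points passed limma's test adjusted over all detected probes. All 5 probes fell with anti-IgM in wild-type E12 cells, while the untreated mutant minus wild-type difference of Mxd4 ranges from 0.06 by its brightest probe to 0.83.

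Mxd3, a MAX partner best known from the S phase of dividing cells, was dim, with values above the detection limit on 9 of 12 arrays. Its level was 6.82, 6.42 and 6.14 with mutant E12 and anti-IgM, against 7.18, 6.85 and 6.23 with mutant E12 untreated. In wild-type E12 cells it was 5.42, 5.53 and 6.00 with anti-IgM, against 5.75, 6.26 and 6.33 untreated. Stimulated and untreated arrays overlapped in both forms, and the mutant arrays with anti-IgM lay above all 3 wild-type ones. The mutant change was -0.30 (limma adjusted p = 0.846). The wild-type change of -0.47 ± 0.25 did not pass (limma adjusted p = 0.172) but did so with replicates blocked within form (limma adjusted p = 0.00887) and with array weights (limma adjusted p = 0.00276).

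Of the wild-type arrays with anti-IgM, 1 of 3 was above the detection limit for Mxd3, so the size of a difference from them depended on the offset. Mxd3 was higher with mutant than with wild-type E12 by 0.81 ± 0.25 with anti-IgM (limma adjusted p = 0.0153) and by 0.64 ± 0.25 untreated (limma adjusted p = 0.0482). The first was 1.85 with an offset of 16 and 0.46 with an offset of 100, and passed with both (limma adjusted p 0.00656 and 0.0423). The first call was lost without replicate 1 or 2 of wild-type E12 with anti-IgM or replicate 1 of mutant E12 with anti-IgM (limma adjusted p 0.0687, 0.0568 and 0.0642). The second held in 8 of 24 alternatives and was lost on the values as deposited (limma adjusted p = 0.0554).

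Mxi1, another repressive MAX partner, was near the detection limit and above it on 10 of 12 arrays. It read 6.31, 6.49 and 6.47 with mutant E12 and anti-IgM, against 5.88, 5.77 and 6.14 in stimulated wild-type E12 cells, and 1 of those 3 wild-type arrays was above the limit. The groups did not overlap, and the difference between the forms was 0.49 ± 0.13 (limma adjusted p = 0.00636). With an offset of 16 it was 0.96 and with an offset of 100 it was 0.29, and it passed with both (limma adjusted p 0.00266 and 0.0116). Untreated cells had 6.51, 6.39 and 6.26 with mutant E12, against 6.24, 6.06 and 6.25 with wild-type E12, a difference of 0.21 that did not pass (limma adjusted p = 0.215). The responses to anti-IgM were 0.03 with mutant E12 and -0.25 ± 0.13 with wild-type E12 (limma adjusted p 0.980 and 0.153).

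Mnt, the broadly expressed MAX partner that opposes MYC, was lower with mutant than with wild-type E12 under anti-IgM. The levels were 6.05, 6.16 and 6.19 with mutant E12, against 6.52, 6.62 and 6.41 with wild-type E12. The groups were apart, with a difference of -0.38 ± 0.12 (limma adjusted p = 0.0224). It did not pass without replicate 1 or 2 of wild-type E12 with anti-IgM or replicate 1 of mutant E12 with anti-IgM (limma adjusted p 0.0601, 0.0946 and 0.0679). Untreated, Mnt had 6.30, 6.27 and 6.13 with mutant E12, against 6.00, 6.35 and 6.32 with wild-type E12, so that the forms overlapped and differed by 0.01. Its response was -0.10 with mutant E12 and 0.29 ± 0.12 with wild-type E12 (limma adjusted p 0.926 and 0.0930).

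Mxd1, the founding member of the MXD repressors, gave 0 calls in the 5 comparisons. Its 12 arrays spanned 6.31 to 6.72. The changes with anti-IgM were -0.16 with mutant E12 and 0.02 with wild-type E12 (limma adjusted p 0.810 and 0.910), with 95% intervals of -0.42 to 0.10 and -0.24 to 0.29. Of its 3 probes, 2 were above the detection limit on 0 arrays.

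**Figure D3:**
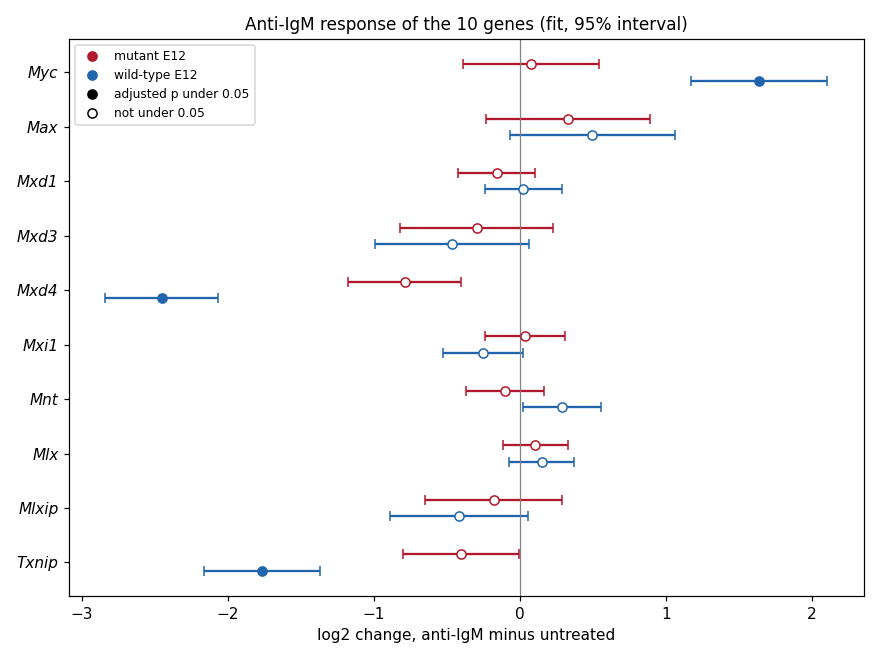
Log2 change with anti-IgM of the 10 genes with mutant E12 (upper of each pair, red) and wild-type E12 (lower, blue), from the fit over 3 arrays per group, with 95% intervals; filled points passed limma's test over all genes. With mutant E12 0 of the 10 passed, and with wild-type E12 Myc (1.64), Mxd4 (-2.45) and Txnip (-1.77) passed.

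In the metabolic branch, Mlx, the shared partner of MLXIP and of several MXD proteins, had a narrow range. Its brightest probe read 7.20, 7.09 and 7.08 with mutant E12 and anti-IgM, against 6.98, 7.11 and 6.96 with mutant E12 untreated. With wild-type E12 it read 6.95, 6.86 and 6.85 with anti-IgM, against 6.73, 6.74 and 6.73 untreated. Every mutant array was above every wild-type array of the same treatment. The difference between the forms was 0.24 with anti-IgM (limma adjusted p = 0.0793) and 0.28 ± 0.10 untreated (limma adjusted p = 0.0407). The untreated call held in 10 of 25 alternatives, and a second Mlx probe gave 0.08 (limma adjusted p = 0.728 over all probes). The responses were 0.11 with mutant E12 and 0.15 with wild-type E12 (limma adjusted p 0.894 and 0.305).

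Mlxip, the glucose-sensing partner of MLX, showed 0 calls. It had 7.61, 8.35 and 8.21 with mutant E12 and anti-IgM, against 8.23, 7.77 and 8.71 with mutant E12 untreated. With wild-type E12 it had 8.22, 8.03 and 7.99 with anti-IgM, against 8.68, 8.42 and 8.40 untreated. The wild-type groups separated and the mutant groups overlapped widely. The changes were -0.18 with mutant E12 (limma adjusted p = 0.925) and -0.42 ± 0.22 with wild-type E12 (limma adjusted p = 0.171). The wild-type change passed when only the wild-type arrays were fitted (limma adjusted p = 0.0251) and with array weights (limma adjusted p = 0.0144). With array weights the untreated difference between the forms (-0.49) and the difference of the responses (0.62) passed too (limma adjusted p 0.00623 and 0.0396). Only 1 of the 5 Mlxip probes passed the detection filter.

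Txnip, the target gene of MLXIP and MLX whose paired element is printed above, changed in all but 1 of the 5 comparisons. With mutant E12 its brightest probe read 11.91, 12.60 and 11.96 with anti-IgM, against 12.42, 12.63 and 12.63 untreated. These groups overlapped, and the change of -0.40 ± 0.19 did not pass (limma adjusted p = 0.536). With wild-type E12 the probe read 9.11, 9.60 and 9.70 with anti-IgM, against 11.31, 11.19 and 11.22 untreated. Those stimulated arrays were the 3 lowest of the study. The wild-type change was -1.77 ± 0.19 (limma adjusted p = 9.62e-06), the 31st most negative among all genes. The responses differed by 1.37 ± 0.26, mutant minus wild-type (limma adjusted p = 0.00765).

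Txnip had the largest of the 3 called differences between the untreated forms. It was higher with mutant E12 by 1.32 ± 0.19 untreated (limma adjusted p = 7.50e-05) and by 2.68 ± 0.19 with anti-IgM (limma adjusted p = 1.42e-07), the 10th largest positive difference of all genes. The values as deposited gave larger differences, 2.10 untreated and 3.30 with anti-IgM. The second Txnip probe gave responses of -0.53 with mutant E12 and -1.57 with wild-type E12, and differences between the forms of 1.39 untreated and 2.43 with anti-IgM. Its difference of responses was 1.04 (limma adjusted p = 0.0138 over all probes). On the values as deposited that became 0.86 and missed the threshold (limma adjusted p = 0.0580).

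**Figure D4:**
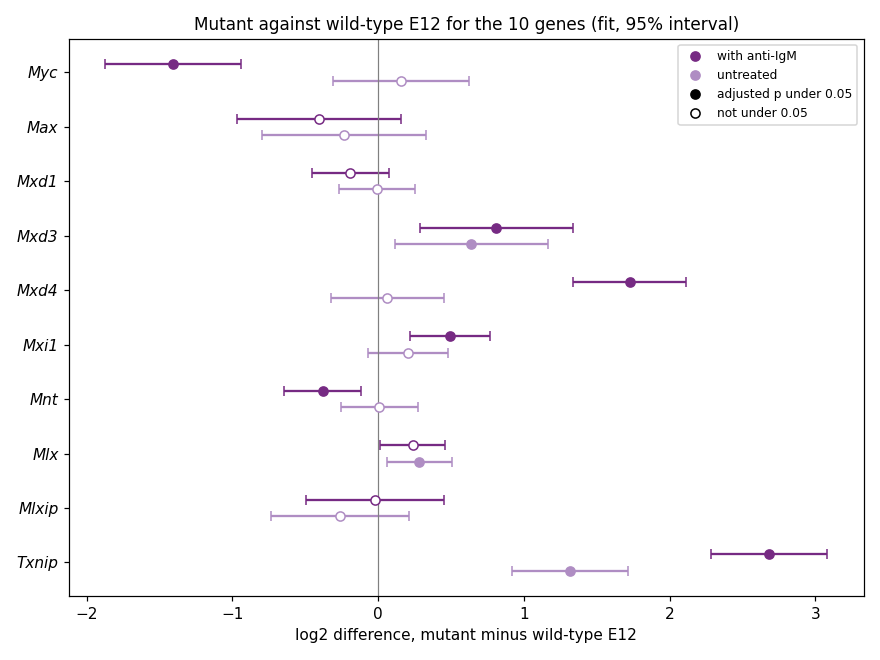
Mutant minus wild-type E12 differences of the 10 genes on the log2 scale with anti-IgM (upper of each pair, dark) and untreated (lower, light), from the fit over 3 arrays per group, with 95% intervals; filled points passed limma's test over all genes. Txnip was higher with mutant E12 in both conditions (2.68 and 1.32), and Mxd4 differed with anti-IgM (1.73) and did not pass by this probe in untreated cells (0.06).

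Known targets and partners of the network were then read from the same fits, where 31.3% of all genes were called in the wild-type E12 response and 0.229% in the mutant one. The lists were chosen with earlier results of these data known, so their counts are a description. Most genes named from them had the largest called wild-type changes of their list, a choice that favours a smaller mutant response. Of 27 tested genes known to be activated by MYC, 1 rose and 0 fell with anti-IgM in mutant E12 cells, Nop56, and the median change was 0.33 (all genes -0.01). In wild-type E12 cells 23 rose and 0 fell, with a median of 1.25 (all genes -0.02). The difference of the responses was called for 17 of the 27, all of them lower with mutant E12, with a median of -0.98. On the values as deposited that count was 10, with a median of -0.85. Srm, which makes spermidine, averaged 11.07 ± 0.07 with mutant E12 and anti-IgM and 10.51 ± 0.09 untreated, and 12.03 ± 0.16 in stimulated wild-type E12 cells and 9.38 ± 0.27 untreated (SD, n = 3 each). It changed by 0.55 with mutant E12, which did not pass (limma adjusted p = 0.150), and rose by 2.65 ± 0.14 with wild-type E12 (limma adjusted p = 6.81e-08), and the other 2 Srm probes gave wild-type rises of 2.95 and 2.58.

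Nop56 and Nop58, core proteins of the box C/D snoRNPs, changed by 0.97 and 0.65 with mutant E12, of which that of Nop56 passed (limma adjusted p = 0.0376 and 0.220), and rose by 2.49 and 2.21 with wild-type E12. Rrp9, a protein of the U3 snoRNP, changed by 0.71 with mutant E12 (limma adjusted p = 0.220) and rose by 2.14 with wild-type E12. All 4 genes had their highest group mean in wild-type E12 cells after anti-IgM. Between the forms with anti-IgM, 0 of the 27 genes were higher and 16 lower with mutant E12, and untreated 7 were higher and 3 lower. Of all genes, 21.3% were higher and 22.2% lower with anti-IgM and 20.4% higher and 22.2% lower untreated, so the untreated count was near the background. On the values as deposited the splits were 4 higher and 10 lower with anti-IgM and 13 higher and 0 lower untreated.

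Of 11 tested genes known to be repressed by MYC, 0 were called with mutant E12. With wild-type E12 4 fell and 1 rose, with a median of -0.30, where 31.3% of all genes were called. The 5 genes changed with mutant E12 by -0.08 for Ccng2, -0.10 for Cdkn2d, -0.35 for Cdkn2c, -0.15 for Gadd45a and 0.19 for Cdkn1a, none of which passed. With wild-type E12 Ccng2, an atypical cyclin of quiescent cells, fell by 1.41, the CDK inhibitor genes Cdkn2d and Cdkn2c fell by 1.28 and 1.14, and the growth arrest gene Gadd45a fell by 0.54. The one that rose was Cdkn1a, the p21 gene, by 0.49, named after its value had been seen. The difference of the responses passed for Ccng2 (1.33), Cdkn2d (1.18) and Cdkn2c (0.80), with limma adjusted p of 0.0271, 0.0228 and 0.0229. On the values as deposited 0 of the 11 passed it. Between the forms with anti-IgM, 7 of the 11 were higher and 3 lower with mutant E12 (median 0.66), and untreated 4 were higher and 2 lower. The shares of all genes were 21.3% higher and 22.2% lower with anti-IgM, and 20.4% higher and 22.2% lower untreated. As deposited, the values gave 7 higher and 2 lower with anti-IgM and 4 higher and 2 lower untreated. The other 2 Cdkn2c probes fell less with wild-type E12, by 0.63 and, without passing, 0.32, and their differences of responses, 0.38 and 0.10, did not pass (limma adjusted p 0.387 and 0.867 over all probes).

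**Figure D5:**
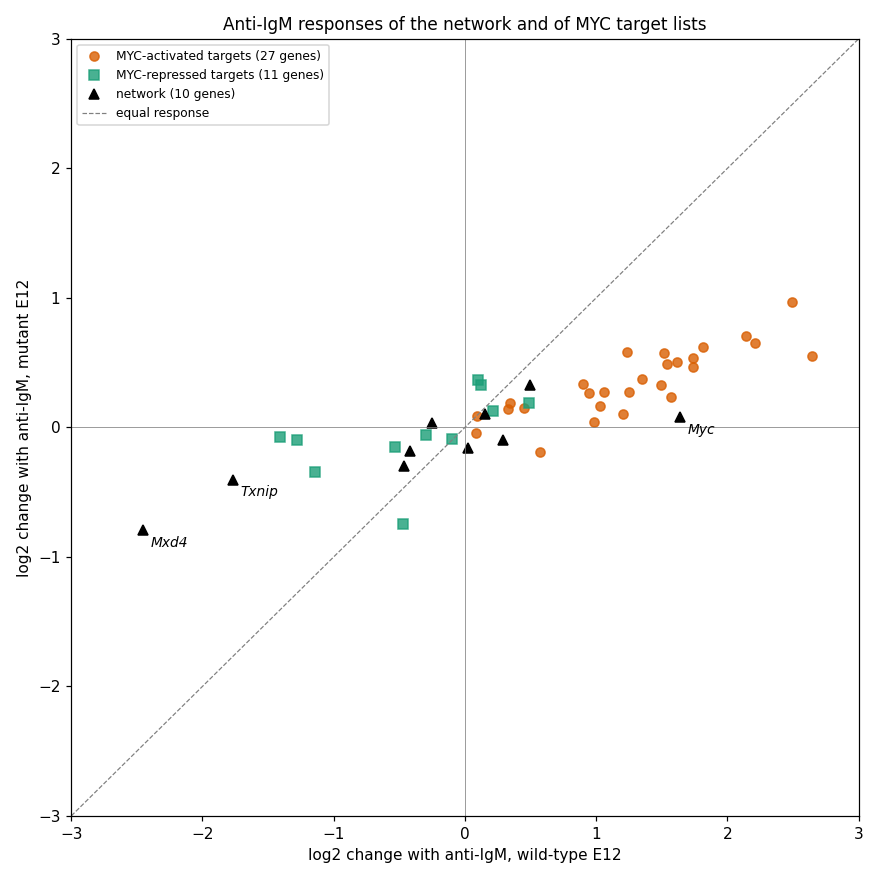
Log2 change with anti-IgM in wild-type E12 cells (horizontal) against that in mutant E12 cells (vertical) for the 10 network genes (triangles), 27 MYC-activated targets (circles) and 11 MYC-repressed targets (squares), from 3 arrays per group; the dashed line marks equal responses. The activated targets have a median of 0.33 with mutant E12 and 1.25 with wild-type E12, and Myc, Mxd4 and Txnip lie off the line.

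Among the proteins that MYC and the MXD repressors work with, 0 of 16 tested genes were called with mutant E12, and with wild-type E12 5 rose and 2 fell (median 0.12). The ATPase genes Ruvbl1 and Ruvbl2 rose by 1.36 and 1.06, Wdr5, a chromatin docking partner of MYC, by 0.90, and the acetyltransferase gene Kat2a by 0.69. Zbtb17, which encodes the MYC partner MIZ1, rose by 0.55, and Mycl and Mycbp2 fell by 0.44 and 0.47; these 3 were named after their values had been seen. The difference of the responses passed for Ruvbl1 (-1.05, limma adjusted p = 0.0113) and Wdr5 (-0.75, limma adjusted p = 0.0340), and 1 of the 16 passed it on the values as deposited, with median centring and with cyclic loess. Sin3a and Sin3b, scaffolds of the complex that MXD proteins recruit, changed by -0.19 and -0.19 with mutant E12 and by -0.34 and -0.34 with wild-type E12 and did not pass; both were named after their values had been seen.

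Of 16 tested genes that act on MYC protein stability, 0 were called with mutant E12, and 3 rose and 1 fell with wild-type E12 (median 0.12), no more than the 31.3% of all genes. Pim3, a kinase whose family stabilizes MYC, changed by 0.12 with mutant E12 (limma adjusted p = 0.904) and rose by 1.54 ± 0.13 with wild-type E12 (limma adjusted p = 1.66e-06). Its difference of responses was -1.42 (limma adjusted p = 8.23e-04), and only this 1 of the 16 was called. Usp36, a nucleolar deubiquitinase of MYC, rose by 0.85, the ubiquitin ligase gene Stub1 rose by 0.55 and Aurka, a mitotic kinase, fell by 0.55, but second probes of Usp36 and Stub1 gave 0.41 and 0.04 without passing. Fbxw7, the receptor of the ligase that marks MYC for destruction, changed by -0.28 with mutant E12 and 0.05 with wild-type E12 and was not called; it was named after its values had been seen.

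Around MLXIP and TXNIP, 0 of 8 tested targets and partners were called with mutant E12, and with wild-type E12 3 rose and 0 fell (median 0.24), near the 31.3% of all genes. Slc2a1, the glucose transporter whose surface level TXNIP lowers, averaged 10.68 ± 0.35 with mutant E12 and anti-IgM and 10.61 ± 0.30 untreated, and 9.75 ± 0.18 in stimulated wild-type E12 cells and 8.62 ± 0.14 untreated (SD, n = 3 each). It changed by 0.07 with mutant E12 and rose by 1.13 ± 0.18 with wild-type E12 (limma adjusted p 0.978 and 3.68e-04), so that its wild-type response ran opposite to that of Txnip, while between untreated forms both genes were higher with mutant E12 (Slc2a1 by 2.00). The difference of the Slc2a1 responses was -1.06 (limma adjusted p = 0.0246), which did not pass on the values as deposited, where 0 of the 8 did. Txnrd1, thioredoxin reductase, rose by 0.48 and Txn2, mitochondrial thioredoxin, by 0.65 with wild-type E12, though a second Txn2 probe gave 0.13 without passing. Arrdc4, a paralogue of Txnip and a target of the same pair, changed by -0.14 with mutant E12 and 0.12 with wild-type E12 (limma adjusted p 0.897 and 0.577), and was named after its values had been seen.

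Among 8 other E-box factors of the same protein class, 0 were called with mutant E12. With wild-type E12 Tfe3 rose by 0.48 and Usf1 fell by 0.48, where 31.3% of all genes were called. A second Usf1 probe (-0.03) did not share that decrease. The difference of the responses was called for 0 of the 8.

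The genes whose level followed a member most closely over the 12 arrays were found by Pearson correlation, given here as a description, since the arrays share groups and normalization. For Myc they were Dot1l (0.978), a histone methyltransferase, Ahcyl1 (0.971), the splicing factor Srsf5 (0.956), the repressor Gfi1 (0.956) and the arginine methyltransferase Carm1 (0.955). For Mxd4 they were Ctdsp2 (0.994), the dNTP hydrolase Samhd1 (0.990), the cell cycle factor E2f2 (0.984), the inositol phosphatase Inpp5k (0.984) and the Mediator kinase Cdk19 (0.979). Within the 6 mutant arrays alone the 5 genes of Mxd4 had coefficients of 0.900 to 0.996, and those of Myc 0.594 to 0.832. Within the 6 wild-type arrays the coefficients were 0.990 to 0.999 for Mxd4 and 0.969 to 0.997 for Myc. For Txnip the genes were Abi3 (0.986), Tm2d2 (0.985), Fam221a (0.983), Aldh3b1 (0.981) and Cytip (0.980). They had 0.686 to 0.976 within the mutant arrays and 0.958 to 0.989 within the wild-type ones. The genes were picked on all 12 arrays, so the coefficients within a form are no separate check.

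Among the members themselves, the coefficient over the 12 arrays was -0.87 between Myc and Mxd4, -0.80 between Myc and Txnip and 0.84 between Mxd4 and Txnip. Mnt followed Myc with 0.79, and Mxi1 followed Txnip with 0.86. Mlxip, the regulator of Txnip, had 0.11 with it. These values carry the differences between the 4 groups and are no measure of a relation within a group.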

How the data were processed

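RNA of the 12 samples was measured on Illumina bead arrays. The deposited values are probe intensity values on a linear scale, background-subtracted and normalized by the authors separately for the mutant and wild-type E12 arrays, as read from the values (some below 0, 1 median per form). Their software is not given in the sources used here. The 12 columns of a second table, of raw signals, match no sample label and were left out. The arrays were quantile-normalized together and log2(intensity + 50) was taken. Each array's detection limit was set from its values below 0 at p 0.01, and probes above it on 3 or more arrays were kept. Of the 45281 probes, 10378 carried no gene symbol, 18 carried several and 34885 carried 1. The brightest detected probe stood for a gene, which gave 10050 genes.

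The test was limma 3.58.1 under R 4.3.3 (lmFit, eBayes, two-sided, 1 mean per group, 8 residual and 6.25 prior degrees of freedom). Benjamini-Hochberg adjustment was over all genes in each of 5 comparisons, or over all detected probes for single probes, with a threshold of 0.05. Symbols came from the platform annotation, with 34807 looked up by Entrez identifier. On simulated data for the wild-type E12 response over 10050 genes, 86 of 100 changes of 1 (log2) and 100 of 100 changes of 2 were recovered, with 6 unchanged genes called. Only those planted genes changed, and the noise was independent, with 1 spread per gene in all groups. In the data 31.3% of genes were called in that response, and the median SD by group ran from 0.10 to 0.18. The simulation therefore does not give the recovery in these data. The number of arrays limits the precision. Deviations of same-numbered untreated and anti-IgM arrays correlated at 0.289, 0.177 and 0.185 with wild-type E12, all over 0.1. Differently numbered wild-type arrays also passed 0.1, untreated 2 with anti-IgM 3 at 0.153 and untreated 3 with anti-IgM 2 at 0.121. The numbers, taken from the titles, are therefore not established as pairs. With mutant E12 1 of the 3 same-numbered pairs fell short of 0.1.

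The members and gene lists were chosen with earlier results of these data known. The genes named were all members, up to 4 per list with the largest called change in the wild-type E12 response, Tcf3, and the 5 genes most like Myc, Mxd4 and Txnip; the other list genes are marked as named after their values were seen. Alternatives covered the offset, scaling, detection filter, probe choice, array weights, arrays fitted, replicate blocks, prior and each array left out.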

Additional observations from a re-analysis of the deposited data

Results flagged for a closer look

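For 3 members the anti-IgM response with mutant E12 differed from that with wild-type E12 by limma's interaction term. Myc responded less, with a difference of -1.56 (limma adjusted p = 0.00847): the change was 0.08 with mutant E12 and 1.64 with wild-type E12. Mxd4 was reduced less, with a difference of 1.66 (limma adjusted p = 0.00230), from changes of -0.79 with mutant E12 and -2.45 with wild-type E12. Its other 2 probes gave differences of 0.73 and 0.37, neither called. Txnip had a difference of 1.37 (limma adjusted p = 0.00765), from changes of -0.40 with mutant E12 and -1.77 with wild-type E12. Its second probe gave 1.04. Over all genes, 6.95% were called in this comparison.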

How the results depend on the processing

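The calls of Myc, Mxd4 and Txnip in the wild-type E12 response, in the difference of the responses and between the forms with anti-IgM, and that of Txnip between the untreated forms, held in every alternative run, 25 or 26 for each. Myc ranged from 1.28 to 2.07, Mxd4 from -2.55 to -1.65 and Txnip from -1.89 to -1.60 in the wild-type E12 response. Over the 10 members and 5 comparisons, 1205 alternative values kept the reported call, 37 lost one and 18 gained one, and 0 called values changed sign. The members called in the mutant E12 response numbered 0 as reported, 1 with array weights, 1 with the replicate block within E12 form and 0 to 1 without single arrays, in each case Mxd4 (-0.79, limma adjusted p = 0.0121 with that block). The mutant arrays' same-numbered deviations correlated at 0.608, -0.0455 and 0.547, so their numbers were not taken as pairs. In the wild-type E12 response the members called numbered 3, then 6 with array weights, 5 with the replicate block within form and 3 to 4 without single arrays. Of all genes, 31.3% were called as reported, 51.7% with array weights, 39.1% with that block and 22.7% to 33.5% without single arrays. Between the untreated forms the count was 3, then 5 with array weights, 1 with only the 2 groups compared, 1 with the replicate block over the 12 arrays and 1 to 3 without single arrays. The shares of all genes called were 42.6%, 60.8%, 35.7%, 42.7% and 33.7% to 44.6% in that order. Between the forms with anti-IgM the count was 6, then 7 with array weights, and 4 to 6 without single arrays. There the shares of all genes were 43.5%, 53.1% and 35.5% to 47%. For the difference of the responses the count was 3, then 4 with array weights, and 3 to 3 without single arrays. The shares of all genes were 6.95%, 23.2% and 3.72% to 8.09% in that order. Without an array the remaining 2 of its group were assumed to vary like the other groups. Over all genes, calls in the mutant E12 response numbered 23, then 717 with array weights, 215 with the replicate block within form, 49 on the values as deposited and with median centring, 51 with cyclic loess, 11 with an offset of 16, 7 with only the 2 groups compared, 37 with no filter and 2 to 57 without single arrays; in the difference of the responses 698, then 2327 with array weights, 1402 with that block, 385 on the values as deposited, with median centring and with cyclic loess, 464 with the offset of 16 and 374 to 813 without single arrays; and in the wild-type E12 response 3148, then 5196 with array weights. The MYC-activated targets called in the wild-type E12 response ranged from 21 to 23, and in the difference of the responses from 9 to 18. The causes were not tested. Mxd3 and Mxi1 lay near the detection limit, where the offset shrinks changes, and neither had a value with a probe required on all 12 arrays.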
